A study of Mus musculus with 15 samples.

Results

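The comparison described here sets mouse neural cells kept for 7 days in FGF against the neuromesodermal progenitors (NMPs) from which they came. It uses 5 of the 15 RNA-seq samples of the series, chosen by their labels: 2 samples of Sox2+ 7 d FGF cells and 3 samples of NMPs. All cells derive from 1 mouse embryonic stem cell line, STR-KI, which carries 1 tagged and 1 wild-type allele of each of 2 genes (Sox2::mCherry/WT and Tbxt::GFP/WT), so every group shares this background. NMPs were made in N2B27 medium with FGF2 at 10 ng/mL for 48 h and then FGF2 plus the GSK3 inhibitor CHIR at 5 µM for 24 h, and were sorted as positive for both reporters. For the 7 d group, mCherry-positive cells were replated, grown in FGF without CHIR, and sorted again for mCherry alone. The labels do not say whether the 7 d run from NMP induction or from an earlier sort, nor do they give the FGF dose after replating. An intermediate group of 2 samples is given beside them. These were NMPs grown for 48 h in FGF and CHIR and sorted for mCherry (48 h Sox2+ cells). Another group of 3 samples, GFP-positive cells grown for 7 d in FGF and CHIR and sorted as negative for both reporters (Tbxt-derived cells), was used to ask whether a change differed between the end points. Time, the withdrawal of CHIR and the sort gate differ together between the 7 d cells and NMPs and cannot be told apart. Between 48 h Sox2+ cells and 7 d FGF cells, time and the withdrawal of CHIR also change together. Words such as returned, crossed or peaked compare levels in these groups and do not describe a course in 1 medium.

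NMPs are cells of the caudal end of the embryo that co-express Sox2, a neural and pluripotency factor, and Tbxt (Brachyury), a mesoderm factor, and that give rise to spinal cord and to paraxial mesoderm. FGF and WNT signals maintain them and drive Cdx and posterior Hox genes. When caudal progenitors enter the neural tube they switch on Sox1, Pax6 and Notch target genes, and graded BMP and WNT from the roof plate and Hedgehog from the floor plate then divide the tube into dorsal and ventral progenitor domains.

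Levels are reads per 1000000 reads (CPM), and the test was limma on log2(CPM + 1) over 12943 genes with Benjamini-Hochberg adjustment at 0.05; log2 changes carry their standard error. The 7 d FGF replicate 2 was the shallowest library, at about 0.799 M reads inferred from the step between CPM values, against 3.43 to 9.88 M in the others, so that 3 reads are worth 3.76 CPM there. In 7 d FGF cells 2309 genes were higher than in NMPs (17.8% of those tested) and 1062 were lower (8.21%), together 3371 (26.0%). Without replicate 2 of the 7 d FGF cells 1745 genes passed. The median log2 change over all tested genes was 0.134; after median-of-ratios scaling it was close to 0 and the split became 1694 higher and 1541 lower, and after quantile normalization 1621 and 1611. Both 7 d libraries lay above all 3 NMP libraries in 35.2% of genes and below them in 19.3%. The p-values rest on the spread within replicate groups of all 15 libraries, not on that of the 5 compared samples alone. Adjusted p ranges over the alternatives include a 2-fold minimum, which tests against a 2-fold change and not against no change. A gene with a change near or under 2-fold can hardly pass it, whatever its spread. The labels do not say whether replicates were separate cultures, so this spread may be technical. A change in the share of cells of a type and a change in RNA per cell cannot be told apart in such bulk samples.

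**Figure D1:**
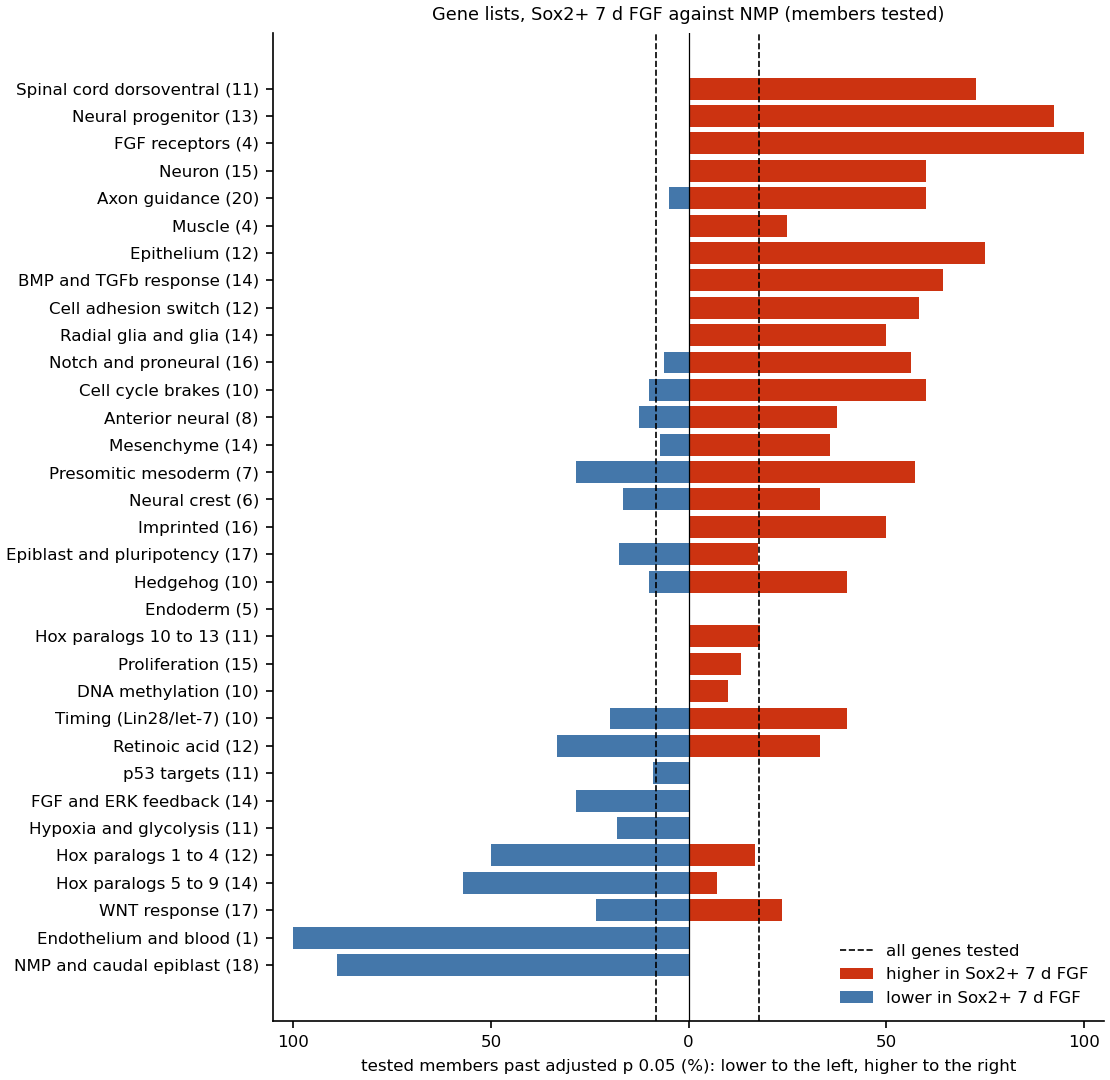
Share of the tested members of each gene list that passed the adjusted p threshold in Sox2+ 7 d FGF cells against NMPs, with higher members drawn to the right and lower members to the left; the number of tested members follows each name and the dashed lines mark all genes tested. Lists are ordered by their median log2 change, from 3.64 for the spinal cord dorsoventral genes at the top to -3.06 for the NMP and caudal epiblast genes at the bottom. Some tested members met the expression filter only through the 7 d FGF libraries and could only be higher.

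The sorted reporters came first. Sox2 stood at 164, 241 and 224 CPM in NMPs and at 390.2 and 388 CPM in 7 d FGF cells, a log2 change of 0.91 ± 0.30 (adjusted p = 0.0412, up to 1 over the alternatives). Tbxt stood at 284, 431 and 445 CPM in NMPs, 32.1 and 29.3 CPM at 48 h and 4.88 and 8.76 CPM in 7 d FGF cells. For Tbxt the log2 change was -5.65 ± 0.33 (adjusted p = 3.67e-07). The libraries of NMPs and 7 d FGF cells did not overlap for either gene. The Sox2 difference passed in 7 of 16 alternatives; both groups were sorted as mCherry-positive, and only the NMPs as GFP-positive.

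The neural progenitor genes were mostly higher: 12 of 13 were higher in 7 d FGF cells and none was lower, with a median log2 change of 3.51. Sox1, among the earliest markers of neural commitment, stood at 2.2, 2.73 and 1.63 CPM in NMPs, 14.9 and 12.1 CPM at 48 h and 112 and 179 CPM in 7 d FGF cells. For Sox1 the log2 change was 5.50 ± 0.33 (adjusted p = 3.63e-07). Pax6, a homeodomain factor of neural tube progenitors, was at or under 1 read in each NMP library and reached 95.3 and 68.9 CPM (adjusted p = 7.31e-07). Hes5, a Notch effector that keeps progenitors undifferentiated, stood at 0.907, 1.29 and 1.16 CPM in NMPs and 94.5 and 198 CPM in 7 d FGF cells. For Hes5 the log2 change was 6.03 ± 0.31 (adjusted p = 1.28e-07). Every 7 d library lay far above every NMP library for these 3 genes. The class III POU factors of neural progenitors rose as well: Pou3f2 stood at 1.56, 1.13 and 1.74 CPM in NMPs, 19.7 and 27.2 CPM at 48 h and 109 and 162 CPM in 7 d FGF cells (log2 change 5.77 ± 0.30). Pou3f3 stood at 0.648, 0.804 and 1.39 CPM in NMPs, 1.26 and 0.457 CPM at 48 h and 70.1 and 136 CPM in 7 d FGF cells. For Pou3f3 the log2 change was 5.68 ± 0.39 (adjusted p = 1.07e-06). Pou3f3 met the expression filter only through the 2 libraries of 7 d FGF cells, so a rise was the only direction open to it. The filter thus set part of the count and median above. Sox4 was the member that did not pass, at 439, 563 and 573 CPM in NMPs and 362 and 511 CPM in 7 d FGF cells. Without the shallow replicate 2, 9 of the 11 members then tested were higher.

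Other neural genes were among the largest rises. Fabp7, a fatty acid binding protein of radial glia, had the largest rise of the genes named here, a log2 change of 7.45 ± 0.40, from 1.94, 0.965 and 1.16 CPM in NMPs to 287 and 571 CPM (adjusted p = 1.49e-07). Nr2f1, an orphan nuclear receptor of neural progenitors, stood at 1.3, 1.29 and 1.51 CPM in NMPs and 257 and 498 CPM in 7 d FGF cells (log2 change 7.25 ± 0.69); its 48 h replicates differed, at 2.02 and 24.0 CPM. Meis1, a homeodomain cofactor of Hox proteins, climbed in both intervals, from 1.56, 2.25 and 2.44 CPM through 12.4 and 16.8 CPM to 158 and 197 CPM. For Meis1 the log2 change was 5.86 ± 0.22 (adjusted p = 8.28e-09). Glra1, a glycine receptor subunit, had no reads in NMPs or at 48 h and stood at 38.0 and 62.6 CPM in 7 d FGF cells, and Nsg2, a neuronal vesicle protein, went from 1.17, 0.482 and 1.04 CPM in NMPs to 56.1 and 80.1 CPM in 7 d FGF cells. For Nsg2 the log2 change was 5.18 ± 0.48. Tinagl1, a secreted matrix protein, stood at or under 1 read in NMPs and at 108 and 33.8 CPM in 7 d FGF cells, but at 451 CPM in the single library of double-negative cells kept for 7 d in FGF.

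Among genes that pattern the spinal cord from dorsal to ventral, those that rose included markers of dorsal progenitors, and the ventral markers measured did not pass the test or the expression filter. Of 21 members 11 met the expression filter, and only 6 met it without 7 d FGF replicate 2. Pax7, Msx3 and Olig3 met it only through the 2 libraries of 7 d FGF cells, so a rise was the only direction open to them. Of the 11 tested members 8 were higher and none was lower, with a median log2 change of 3.64. The filter thus set part of this count and median. Pax3, of dorsal progenitors, stood at 6.87, 7.56 and 6.39 CPM in NMPs, 21.7 and 20.1 CPM at 48 h and 72.4 and 131 CPM in 7 d FGF cells. For Pax3 the log2 change was 3.64 ± 0.99 (adjusted p = 0.0252, up to 0.243 over the alternatives). Pax7 stood at 0.907, 0.804 and 0.464 CPM in NMPs and 18.0 and 32.6 CPM in 7 d FGF cells (log2 change 3.88 ± 0.35, adjusted p = 8.25e-06). Msx3, a dorsal neural tube homeodomain factor, went from 0.907, 0.482 and 0.232 CPM in NMPs to 32.1 and 72.6 CPM in 7 d FGF cells. For Msx3 the log2 change was 5.02 ± 0.39 (adjusted p = 2.74e-06). These genes were above the NMP range in both 7 d libraries. Olig3, of the most dorsal progenitor domains, had no reads in NMPs and stood at 11.5 and 88.9 CPM in 7 d FGF cells. Gsx1, of the dorsal interneuron progenitors, stood at 1.81, 0.965 and 0.929 CPM in NMPs and 11.9 and 26.3 CPM in 7 d FGF cells. For Gsx1 the log2 change was 3.09 ± 0.39 (adjusted p = 0.000127). The rise was not confined to genes described here as dorsal. Irx5, a list member not counted here as a dorsal marker, had a log2 change of 3.89 (adjusted p = 0.000753).

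Most ventral genes were near 0. Shh, the floor plate morphogen, stood at 0.259, 0.161 and 0.348 CPM in NMPs and 0.212 and 0 CPM in 7 d FGF cells, and Nkx2-2, of the progenitor domain next to the floor plate, had no reads in either 7 d library. Olig2, of motor neuron progenitors, stood at 0.637 and 1.25 CPM there. Nkx6-1, of ventral progenitors, was at 6.48, 7.56 and 12.5 CPM in NMPs, 14.9 and 53.03 CPM at 48 h and 10.2 and 3.76 CPM in 7 d FGF cells and did not pass. For Nkx6-1 the log2 change was -0.39 ± 0.74. By counting error alone, 0 reads allow up to 3.76 CPM in replicate 2 and up to 0.637 CPM in replicate 1, so lower levels were not detectable at this depth. Some of the most dorsal genes were high mainly in replicate 2. Atoh1, of the domain next to the roof plate, stood at 1.06 and 40.1 CPM in the 7 d replicates 1 and 2, and Wnt1, of the roof plate, at 2.76 and 21.3 CPM; neither met the expression filter. Leaving out 1 library at a time, 3 of the dorsoventral members were higher without 7 d FGF replicate 1 and 2 of the 6 then tested without replicate 2.

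**Figure D2:**
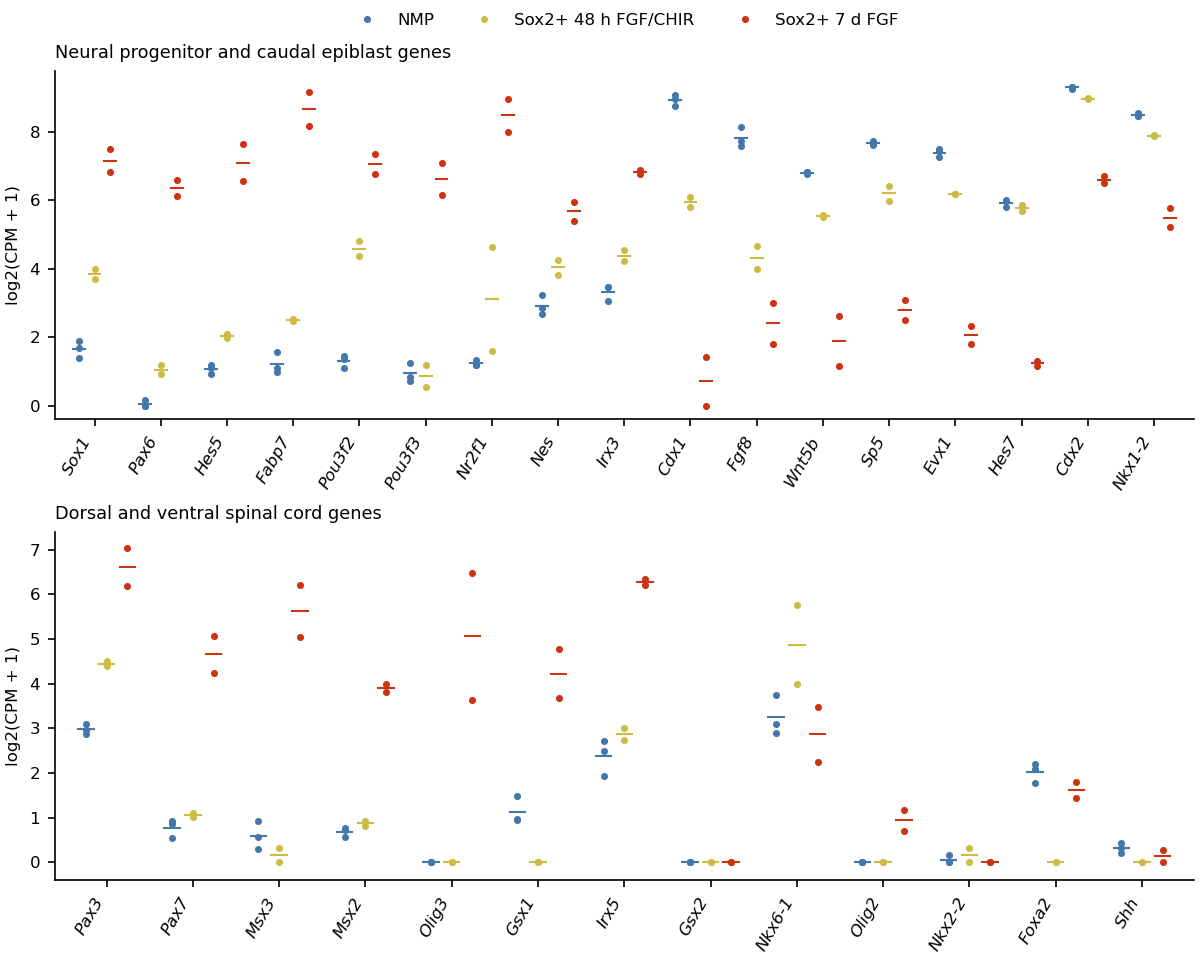
Levels of neural progenitor and caudal epiblast genes (top) and of dorsal and ventral spinal cord genes (bottom) as log2(CPM + 1); each point is a library of NMPs (blue), 48 h Sox2+ cells (yellow) or Sox2+ 7 d FGF cells (red) and the bar is the group mean of the log2 values. Pax6 and Hes5 are near the axis in NMPs and high in both 7 d libraries, Cdx1 and Sp5 run the other way, and Nkx2-2 and Shh stay near 0 in all 3 groups.

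Notch pathway and neurogenic genes rose more often than they fell. Of 16 tested members 9 were higher and 1 was lower, with a median log2 change of 1.13. Lfng, a glycosyltransferase that tunes Notch to its ligands, stood at 0.778, 0.804 and 0.697 CPM in NMPs and 19.1 and 31.3 CPM in 7 d FGF cells (log2 change 3.86 ± 0.28, adjusted p = 1.66e-06). Insm1, a factor of newborn neurons and their direct precursors, stood at 0.259, 0.482 and 0.697 CPM in NMPs and 15.5 and 54.5 CPM in 7 d FGF cells. For Insm1 the log2 change was 4.36 ± 0.48. Insm1 met the expression filter only through the 2 libraries of 7 d FGF cells and could only be higher, so the filter set part of the list count. The Notch ligand Dll1 went from 8.81, 16.9 and 16.1 CPM in NMPs to 35.7 and 78.9 CPM in 7 d FGF cells. For Dll1 the log2 change was 1.91 ± 0.44 (adjusted p = 0.00793, up to 0.46 over the alternatives). Hes1, an effector shared by many tissues, stood at 115, 120.4 and 119 CPM in NMPs and 134 and 128 CPM in 7 d FGF cells and did not pass. Hes7, the oscillating repressor of the segmentation clock, was the member that fell: it stood at 62.1, 54.8 and 63.0 CPM in NMPs, 57.3 and 50.3 CPM at 48 h and 1.49 and 1.25 CPM in 7 d FGF cells. For Hes7 the log2 change was -4.69 ± 0.30 (adjusted p = 5.48e-07). Without 7 d FGF replicate 2 only 1 of the 14 members then tested was higher, while 2 were lower.

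Hes5 and Hes7 belong to the same family of bHLH repressors and moved in opposite directions. Their promoters are shown for this reason, from RefSeq (GRCm38.p6), each from 250 bases before to 50 bases after the start site on the plus strand, with the core letters bound by the Notch cofactor RBPJ (GTGGGAA, or TTCCCAC for the other strand) in capitals. Hes5 lies at chr4:154960673-154960972 and holds 2 matches, 1 on each strand, and Hes7 lies at chr11:69120203-69120502 and holds 1. Of all 32851 promoter windows of this length in the table, 6.38% hold at least 1 match. A match is a description of these letters and not a measured binding site. The build of these windows is not the one the submitters name for their reads, so no expression value was joined by coordinate.
Hes5: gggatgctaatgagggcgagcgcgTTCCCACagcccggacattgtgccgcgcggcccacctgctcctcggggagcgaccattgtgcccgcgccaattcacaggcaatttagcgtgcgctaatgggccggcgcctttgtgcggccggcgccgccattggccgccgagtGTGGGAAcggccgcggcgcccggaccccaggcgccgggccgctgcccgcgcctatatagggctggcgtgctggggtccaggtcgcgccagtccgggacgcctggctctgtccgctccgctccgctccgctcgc
Hes7: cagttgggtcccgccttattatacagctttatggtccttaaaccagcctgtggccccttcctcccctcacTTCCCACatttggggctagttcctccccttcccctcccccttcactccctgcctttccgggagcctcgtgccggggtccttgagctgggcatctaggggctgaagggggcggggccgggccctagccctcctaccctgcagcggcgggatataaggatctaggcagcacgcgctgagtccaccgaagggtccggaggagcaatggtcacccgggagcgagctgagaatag

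Neuronal genes were higher in 9 of 15 tested members, with a median log2 change of 2.24 and none lower. Elavl3, an RNA-binding protein of postmitotic neurons, stood at 1.56, 1.45 and 3.02 CPM in NMPs and 27.0 and 101 CPM in 7 d FGF cells. For Elavl3 the log2 change was 4.19 ± 0.48 (adjusted p = 5.58e-05). Its relative Elavl4 rose already at 48 h, to 10.6 and 8.23 CPM from 2.46, 3.06 and 3.48 CPM, and reached 34.8 and 109 CPM. For Elavl4 the log2 change was 3.98 ± 0.39 (adjusted p = 1.63e-05). Dcx, a microtubule protein of migrating young neurons, was at or under 3 reads per library in NMPs and stood at 11.5 and 43.8 CPM. Dcx met the expression filter only through the 2 libraries of 7 d FGF cells and could only be higher, so the filter set part of the list count. Tubb3, a neuronal tubulin, did not pass (adjusted p = 0.0645, as low as 0.0199 over the alternatives), at 30.5, 19.8 and 24.3 CPM in NMPs and 57.5 and 263 CPM in 7 d FGF cells, where the replicates lay far apart. The neuron list summed to 219, 225 and 237 CPM in NMPs, 102 and 119 CPM at 48 h and 474 and 1347 CPM in 7 d FGF replicates 1 and 2, and 14 of 15 members were higher in replicate 2. Without replicate 2, 5 of the 12 members then tested were higher.

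A few neuronal genes were already present in NMPs. Stmn2, a tubulin-binding protein of growing axons, stood at 52.9, 54.8 and 66.3 CPM in NMPs, fell to 4.04 and 3.43 CPM at 48 h (log2 change -3.64 ± 0.35) and rose again to 61.1 and 138 CPM (log2 change from 48 h 4.30 ± 0.38). Ina, an intermediate filament of neurons, stood at 43.0, 52.6 and 53.3 CPM in NMPs, 1.01 and 3.89 CPM at 48 h and 22.3 and 76.4 CPM in 7 d FGF cells. Against NMPs the 7 d change did not pass for either gene, with a 95% interval of -0.09 to 1.42 for Stmn2 (adjusted p = 0.182, as low as 0.0307 over the alternatives) and -1.43 to 0.93 for Ina.

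Of the radial glia and glia list 7 of 14 tested members were higher, with a median log2 change of 1.20. Sox9, which neural progenitors carry before they make glia, stood at 2.72, 3.54 and 4.3 CPM in NMPs and 42.5 and 91.4 CPM in 7 d FGF cells. For Sox9 the log2 change was 3.82 ± 0.71 (adjusted p = 0.00369). Ednrb, the endothelin B receptor, went from 6.87, 10.6 and 8.24 CPM in NMPs to 46.3 and 53.8 CPM in 7 d FGF cells. For Ednrb the log2 change was 2.43 ± 0.45 (adjusted p = 0.00194, up to 0.0913 over the alternatives, under the 2-fold minimum). Some glial genes were at or near 0: Gfap of astrocytes and Olig1 of oligodendrocyte precursors had no reads in either 7 d library, and Cspg4 stood at 0.212 and 0 CPM.

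The NMP and caudal epiblast genes fell almost without exception. Of 18 members 16 were lower in 7 d FGF cells and none was higher, with a median log2 change of -3.06, and the same number was lower without 7 d FGF replicate 2. Cdx1, a homeodomain activator of posterior Hox genes, stood at 544, 496 and 436 CPM in NMPs, 55.3 and 67.2 CPM at 48 h and 1.7 and 0 CPM in 7 d FGF cells. For Cdx1 the log2 change was -8.22 ± 0.36 (adjusted p = 3.35e-08). Fgf8, the main FGF ligand of the caudal embryo, stood at 284, 214 and 191 CPM in NMPs, 24.2 and 14.9 CPM at 48 h and 7.01 and 2.5 CPM in 7 d FGF cells. For Fgf8 the log2 change was -5.42 ± 0.39 (adjusted p = 2.19e-06). Both genes were lower at each step with no overlap between groups. Cdx4 and the WNT ligand Wnt5b took the same course, with log2 changes of -4.78 ± 0.39 and -4.92 ± 0.31.

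For other caudal genes the 48 h difference did not pass and the later one did. Sp5, a WNT target, stood at 210.1, 201 and 197 CPM in NMPs, 61.8 and 85.3 CPM at 48 h and 4.67 and 7.51 CPM in 7 d FGF cells (48 h against NMPs adjusted p = 0.182, 7 d against 48 h adjusted p = 0.00432). Cdx2 stood at 638, 636 and 615 CPM in NMPs, 504 and 499.6 CPM at 48 h and 103 and 90.1 CPM in 7 d FGF cells (log2 change -2.69 ± 0.20, adjusted p = 1.99e-06). Nkx1-2, a homeodomain factor of caudal progenitors, stood at 356, 372 and 353 CPM in NMPs, 238 and 234 CPM at 48 h and 36.1 and 53.8 CPM in 7 d FGF cells. For Nkx1-2 the log2 change was -3.00 ± 0.27. These 2 genes were lower but still measured in 7 d FGF cells. Wnt3a, a WNT ligand of the NMP niche, stood at 68.4, 74.5 and 64.7 CPM in NMPs, had no reads at 48 h and stood at 5.73 and 8.76 CPM in 7 d FGF cells, higher than at 48 h (adjusted p = 3.16e-05) and lower than in NMPs. For Wnt3a the log2 change was -3.11 ± 0.28. Nr6a1, an orphan nuclear receptor that controls trunk segment number, went from 813, 1184 and 971 CPM through 92.4 and 107 CPM to 204 and 225 CPM, again higher than at 48 h (adjusted p = 0.0154). Of the members that did not pass, Sall4 stood at 157, 204 and 191 CPM in NMPs and 131 and 139 CPM in 7 d FGF cells and Wnt5a at 20.7, 28.1 and 25.9 CPM in NMPs and 38.0 and 25.0 CPM in 7 d FGF cells.

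The Sp5 promoter is shown because Sp5 is a WNT target with one of the largest falls of the genes named here. Its window holds 1 match to the TCF/LEF core CTTTGAT (or ATCAAAG for the other strand), in capitals. It lies at chr2:70474673-70474972 on the plus strand (RefSeq, GRCm38.p6), and 3.73% of all promoter windows hold such a match.
Sp5: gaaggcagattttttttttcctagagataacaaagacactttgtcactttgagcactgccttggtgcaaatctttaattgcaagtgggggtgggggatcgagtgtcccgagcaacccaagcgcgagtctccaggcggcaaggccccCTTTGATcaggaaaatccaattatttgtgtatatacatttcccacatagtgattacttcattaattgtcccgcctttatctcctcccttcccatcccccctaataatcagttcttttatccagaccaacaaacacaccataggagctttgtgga

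WNT pathway genes did not move as a block: of 17 tested, 4 were higher and 4 were lower, with a median log2 change of -0.90. Leaving out any 1 NMP library, or 7 d FGF replicate 2, left 2 lower members. Among the mediators, Tcf7 and Lef1, which activate targets with beta-catenin, fell, from 96.8, 117 and 104 CPM in NMPs to 21.2 and 23.8 CPM in 7 d FGF cells (log2 change -2.19 ± 0.20, adjusted p = 8.85e-06) and from 166, 206 and 201 CPM in NMPs to 55.4 and 71.4 CPM in 7 d FGF cells. For Lef1 the log2 change was -1.58 ± 0.16 (adjusted p = 2.07e-05). Tcf7l1, mainly a repressor, rose, from 32.0, 30.5 and 36.7 CPM in NMPs to 143 and 95.2 CPM in 7 d FGF cells (log2 change 1.79 ± 0.33, adjusted p = 0.00246, up to 0.298 over the alternatives), as did the secreted antagonists Sfrp1 and Sfrp2, with log2 changes of 1.95 ± 0.39 (adjusted p = 0.00388, up to 0.279 over the alternatives) and 2.40 ± 0.65 (adjusted p = 0.0246, up to 0.451 over the alternatives). Notum, a feedback inhibitor of WNT ligands, stood at 101, 107 and 86.8 CPM in NMPs, 129 and 141 CPM at 48 h in CHIR and 5.52 and 5.01 CPM in 7 d FGF cells. For Notum the log2 change was -3.98 ± 1.19 (adjusted p = 0.0367, up to 0.333 over the alternatives). Axin2, the widely used WNT target, stood at 188, 296 and 249.5 CPM in NMPs and 45.2 and 100.2 CPM in 7 d FGF cells, below in both libraries, but its log2 change of -1.82 ± 0.69 did not pass (adjusted p = 0.0828, as low as 0.00298 over the alternatives).

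FGF was in the medium of both groups. All 4 receptor genes were higher. Fgfr2 stood at 3.89, 1.77 and 2.79 CPM in NMPs and 71.1 and 90.1 CPM in 7 d FGF cells (log2 change 4.45 ± 0.25, adjusted p = 2.19e-07). Fgfr3 stood at 0.389, 0.322 and 0.581 CPM in NMPs and 28.2 and 28.8 CPM in 7 d FGF cells. For Fgfr3 the log2 change was 4.37 ± 0.58 (adjusted p = 0.000189). For Fgfr1 the log2 change was 0.64 ± 0.17 (adjusted p = 0.0134, up to 1 over the alternatives). Of the 14 feedback and target genes, 4 were lower and none was higher, with a median log2 change of -0.41. Etv4, an ETS factor induced by FGF, stood at 153, 78.3 and 98.2 CPM in NMPs and 12.5 and 16.3 CPM in 7 d FGF cells (log2 change -2.80 ± 0.44, adjusted p = 0.000938), while Dusp6, the ERK phosphatase, stood at 128, 160.2 and 167 CPM in NMPs and 113 and 133 CPM in 7 d FGF cells and did not pass.

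Retinoic acid genes were split, with 4 of 12 higher and 4 lower. Crabp1, a cytoplasmic retinoic acid binding protein, stood at 43.8, 31.0 and 28.4 CPM in NMPs, fell to 5.55 and 5.71 CPM at 48 h and stood at 688 and 1512 CPM in 7 d FGF cells. For Crabp1 the log2 change from NMPs was 4.87 ± 0.40 (adjusted p = 1.46e-05). Of the retinoic acid degrading enzymes, Cyp26a1, of the caudal embryo, went from 21.6, 24.1 and 26.8 CPM in NMPs to 5.73 and 5.01 CPM in 7 d FGF cells (log2 change -1.98 ± 0.22, adjusted p = 4.51e-05). Cyp26b1, of the hindbrain and limb, rose from at or under 3 reads per library in NMPs to 39.5 and 67.6 CPM (adjusted p = 1.61e-06). Stra6, a retinol transporter, stood at 43.7, 40.7 and 31.1 CPM in NMPs, 38.9 and 53.5 CPM at 48 h and 1.91 and 3.76 CPM in 7 d FGF cells. For Stra6 the log2 change was -3.39 ± 0.87 (adjusted p = 0.0198, up to 0.34 over the alternatives). The synthetic enzyme Aldh1a2 stayed low, at 2.33, 3.06 and 2.44 CPM in NMPs and 4.46 and 1.25 CPM in 7 d FGF cells.

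Of 10 tested Hedgehog pathway genes, 4 were higher and 1 was lower. The co-receptors Gas1, Cdon and Boc, which signalling itself represses in the neural tube, were higher: Gas1 stood at 13.9, 18.0 and 13.5 CPM in NMPs and 225 and 228 CPM in 7 d FGF cells (log2 change 3.83 ± 0.16, adjusted p = 1.85e-08), and Cdon and Boc had log2 changes of 2.90 ± 0.30 and 2.82 ± 0.33. The target genes Gli1, at 3.5, 3.06 and 1.63 CPM in NMPs and 3.82 and 0 CPM in 7 d FGF cells, and Ptch1, at 24.4, 33.3 and 21.9 CPM in NMPs and 26.3 and 28.8 CPM in 7 d FGF cells, did not pass. Without 7 d FGF replicate 2, 0 members of the list were lower. BMP and TGF-beta genes were higher in 9 of 14, with a median log2 change of 1.52. The BMP targets Id2 and Id3 rose in both intervals, Id2 from 41.3, 35.5 and 36.5 CPM through 124 and 117 CPM to 676 and 577 CPM (log2 change 4.01 ± 0.17, adjusted p = 1.85e-08) and Id3 with a log2 change of 2.67 ± 0.23. Bmp4 itself stood at 2.33, 2.09 and 2.9 CPM in NMPs and 19.3 and 14.4 CPM in 7 d FGF cells (log2 change 2.37 ± 0.31).

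Hox genes, which encode position along the body axis, rose at 48 h in part, and those of groups 5 to 9 were mostly lower again in 7 d FGF cells. Over all genes, 343 were higher at 48 h than in NMPs (2.65%) and 682 were lower (5.27%), together 1025 (7.92%); from 48 h to the 7 d FGF cells 2361 were higher (18.2%) and 842 were lower (6.51%), together 3203 (24.7%). For the later step the split was 1720 higher and 1364 lower after median-of-ratios scaling. The 48 h count was 611 and 552 without NMP replicates 2 and 3 and 518 and 315 without 48 h replicates 1 and 2. The later count was 2086 and 1453 without 48 h replicates 1 and 2 and 2003 without 7 d FGF replicate 2. These steps share the 48 h libraries. Of paralogs 5 to 9, 6 of 14 were higher at 48 h and none was lower (median log2 change 0.82), 13 were lower in 7 d FGF cells than at 48 h (median -1.73), and against NMPs 8 were lower and 1 was higher (median -0.86). That count of lower members was 5 without NMP replicate 3 and 4 without 7 d FGF replicate 2. Hoxc6 stood at 37.7, 43.3 and 48.6 CPM in NMPs, 191 and 198 CPM at 48 h and 27.0 and 22.5 CPM in 7 d FGF cells. For Hoxc6 the log2 change from NMPs was -0.78 ± 0.22 (adjusted p = 0.0219, up to 1 over the alternatives). Hoxb8 did not pass at 48 h and was lower at 7 d, at 142, 110.5 and 115 CPM in NMPs, 69.9 and 57.8 CPM at 48 h and 32.1 and 18.8 CPM in 7 d FGF cells. For Hoxb8 the log2 change from NMPs was -2.26 ± 0.33 (adjusted p = 0.000467). Hoxc9 was the member above NMPs, at 16.5, 15.1 and 21.4 CPM in NMPs, 98.4 and 96.0 CPM at 48 h and 38.2 and 31.3 CPM in 7 d FGF cells. For Hoxc9 the log2 change was 0.95 ± 0.20 (adjusted p = 0.0046, up to 1 over the alternatives).

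Of the most posterior genes, paralogs 10 to 13, 4 of 11 tested were higher at 48 h, 4 were lower in 7 d FGF cells than at 48 h, and 2 were higher than in NMPs. Hoxc10 stood at 0.907, 2.09 and 3.31 CPM in NMPs, 196 and 214 CPM at 48 h and 17.9 and 35.1 CPM in 7 d FGF cells, above NMPs (log2 change 3.15 ± 0.37, adjusted p = 0.000142) and below 48 h (log2 change -2.98 ± 0.41, adjusted p = 0.00046). Hoxa10 followed the same path at 2.59, 2.57 and 2.9 CPM in NMPs, 39.8 and 37.9 CPM at 48 h and 6.37 and 15.02 CPM in 7 d FGF cells. For Hoxa10 the log2 change from NMPs was 1.56 ± 0.25 (adjusted p = 0.000688, up to 0.348 over the alternatives). Hoxd10, at or under 3 reads in each NMP library, stood at 17.8 and 15.8 CPM at 48 h and 1.49 and 1.25 CPM in 7 d FGF cells, where it did not pass against NMPs (adjusted p = 0.0982, as low as 0.00775 over the alternatives). In the 1 library of Sox2+ cells kept for 7 d in FGF with CHIR, Hoxc10 stood at 276 CPM, Hoxa10 at 94.6 CPM and Hoxd10 at 47.4 CPM; with 1 sample this difference has no replicate check.

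Anterior Hox genes did not all follow. Hoxa2, of the hindbrain and anterior cord, stood at 10.0, 10.9 and 8.24 CPM in NMPs, 15.8 and 12.2 CPM at 48 h and 52.4 and 82.6 CPM in 7 d FGF cells. For Hoxa2 the log2 change was 2.65 ± 0.28 (adjusted p = 2.78e-05). Hoxb1, an early Hox gene of the caudal epiblast, fell at 48 h and stayed lower, at 89.8, 99.5 and 83.6 CPM in NMPs, 8.08 and 4.34 CPM at 48 h and 20.2 and 6.26 CPM in 7 d FGF cells (log2 change -2.89 ± 0.38, adjusted p = 0.00017). Hoxb2, at 114, 97.6 and 102 CPM in NMPs and 85.6 and 168 CPM in 7 d FGF cells, and Hoxa3, at 40.2, 57.6 and 48.2 CPM in NMPs and 41.4 and 85.1 CPM in 7 d FGF cells, did not pass. In all, 2 of 12 tested genes of paralogs 1 to 4 were higher and 6 were lower; without any 1 NMP library, or without 7 d FGF replicate 2, 1 was higher. Of 8 tested forebrain, midbrain and hindbrain genes outside the clusters, 3 were higher and 1 was lower, and the list summed to 189.5, 167 and 154 CPM in NMPs and 132 and 189 CPM in 7 d FGF cells. The member that fell was Gbx2, of the midbrain-hindbrain border and caudal epiblast, from 169, 147 and 135 CPM in NMPs to 64.5 and 60.1 CPM (adjusted p = 0.0138, up to 1 over the alternatives). It did not pass without NMP replicate 1 or without either 7 d FGF library. Egr2, of hindbrain segments, was at or under 3 reads per NMP library and stood at 24.0 and 51.3 CPM (adjusted p = 5.05e-05). En1 went from 1.3, 0.643 and 1.16 CPM in NMPs to 14.2 and 17.5 CPM in 7 d FGF cells. For En1 the log2 change was 3.06 ± 0.29. The forebrain genes Six3, Rax and Emx1 reached at most 0.212 CPM in any 7 d FGF library and did not meet the filter. Whether the counting kept strand is not given in the sources used here, so Hox genes and antisense transcripts of their clusters cannot be told apart.

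**Figure D3:**
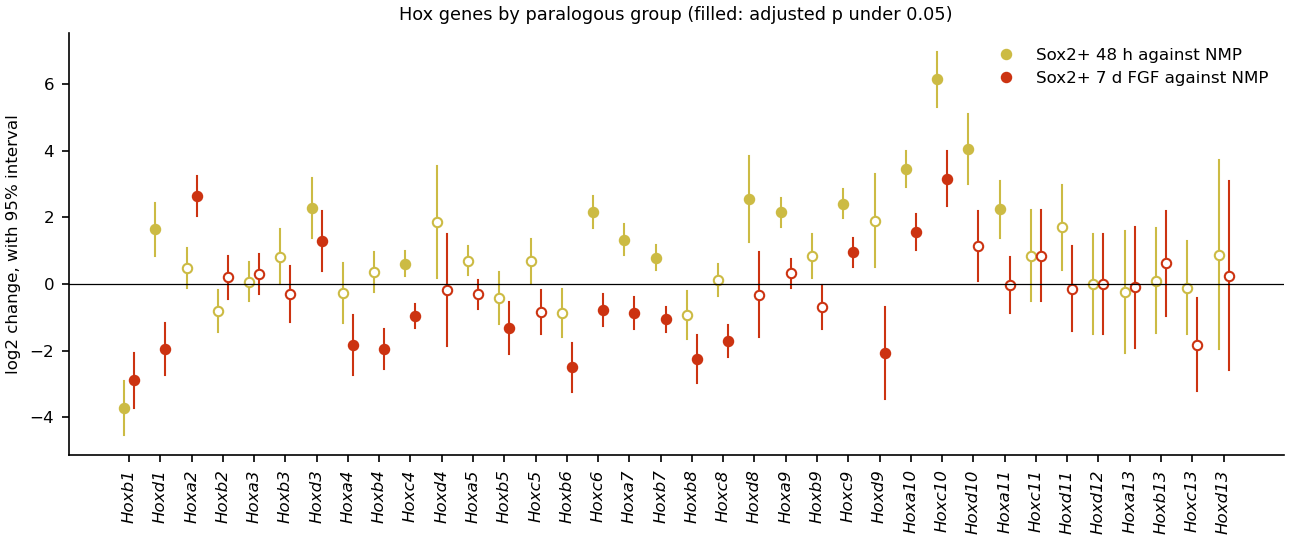
Log2 change against NMPs, with its 95% interval, of tested Hox genes in 48 h Sox2+ cells (yellow) and Sox2+ 7 d FGF cells (red), ordered by paralogous group; filled points passed the adjusted p threshold. Hoxc10 stands 6.13 ± 0.37 above NMPs at 48 h and 3.15 ± 0.37 above them in 7 d FGF cells, and most genes of groups 5 to 9 lie below 0 at 7 d.

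Of 12 tested epithelial genes 3 were lower at 48 h than in NMPs, and 10 were higher in 7 d FGF cells than at 48 h. Cdh1 (E-cadherin) stood at 68.7, 95.7 and 87.7 CPM in NMPs, 6.81 and 3.43 CPM at 48 h and 91.5 and 41.3 CPM in 7 d FGF cells, lower at 48 h (log2 change -3.84 ± 0.34, adjusted p = 2.94e-05) and higher again from there (3.41 ± 0.37, adjusted p = 5.73e-05). Epcam, an epithelial adhesion molecule, stood at 91.7, 102 and 104 CPM in NMPs, 14.9 and 9.83 CPM at 48 h and 147 and 67.6 CPM in 7 d FGF cells. Against NMPs neither passed, with 95% intervals of the log2 change of -1.17 to 0.31 for Cdh1 and -0.65 to 0.67 for Epcam. Other members were higher than in NMPs: 9 of 12 passed and none was lower, with a median log2 change of 1.56. The keratin pair of simple epithelia rose, Krt8 at 5.9, 6.27 and 6.91 CPM in NMPs and 132 and 102 CPM in 7 d FGF cells (log2 change 3.99 ± 0.24, adjusted p = 4e-07). Krt18 stood at 4.67, 6.11 and 3.83 CPM in NMPs and 123 and 68.9 CPM in 7 d FGF cells. For Krt18 the log2 change was 4.005 ± 0.36 (adjusted p = 9.54e-06). The tight junction gene Cldn7 went from 2.98, 2.57 and 2.67 CPM in NMPs to 44.6 and 16.3 CPM in 7 d FGF cells. For Cldn7 the log2 change was 2.91 ± 0.39 (adjusted p = 0.000219). In the double-negative FGF library Krt8 stood at 461 CPM and Krt18 at 316 CPM, above both Sox2+ libraries, and the whole list summed to 1457 CPM there against 704 and 374 CPM in Sox2+ replicates 1 and 2 and 200.01, 238 and 231 CPM in NMPs. Whether carry-over of such cells through the gate added to these levels was not tested.

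Pluripotency genes were lower at 48 h than in NMPs and partly higher again in 7 d FGF cells. The list summed to 614, 480 and 602 CPM in NMPs and 84.2 and 67.7 CPM at 48 h. In 7 d FGF replicates 1 and 2 it summed to 725 and 300 CPM. The single library of Sox2+ cells kept for 7 d in FGF with CHIR held 65.4 CPM. The single double-negative libraries held 1043 CPM in FGF and 685 CPM in FGF with CHIR. Whether the medium or carry-over through the gate set these levels was not tested. At 48 h 9 of 17 tested members were lower than in NMPs and none was higher, and from 48 h to 7 d 9 were higher and none was lower; these 2 counts share the 48 h libraries. Against NMPs 3 were higher and 3 were lower. Pou5f1 (Oct4), the central pluripotency factor, stood at 152, 92.7 and 125 CPM in NMPs, 2.65 and 3.43 CPM at 48 h and 30.1 and 10.0 CPM in 7 d FGF cells, lower than in NMPs (log2 change -2.72 ± 0.41, adjusted p = 0.000516) and higher than at 48 h (adjusted p = 0.00405). Utf1, an epiblast chromatin factor, stood at 40.2, 20.1 and 29.7 CPM in NMPs, 3.28 and 2.74 CPM at 48 h and 50.5 and 16.3 CPM in 7 d FGF cells, and Zfp42 at 17.2, 25.1 and 25.4 CPM in NMPs, 6.18 and 5.94 CPM at 48 h and 71.3 and 18.8 CPM in 7 d FGF cells. Tdh, the threonine dehydrogenase of mouse pluripotent cells, did not come back, at 87.1, 70.8 and 99.4 CPM in NMPs, 2.52 and 3.2 CPM at 48 h and 8.49 and 0 CPM in 7 d FGF cells. For Tdh the log2 change from NMPs was -4.80 ± 0.67 (adjusted p = 0.000378). Nanog stood at 3.24, 3.38 and 3.6 CPM in NMPs and 5.73 and 0 CPM in 7 d FGF cells. Without 7 d FGF replicate 2, 8 members were higher than in NMPs, and without replicate 1 5 were lower.

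Pou3f1, a POU factor of both late epiblast and early neural plate, crossed the NMP level, at 15.6, 12.7 and 14.5 CPM in NMPs, 4.8 and 2.97 CPM at 48 h and 178 and 104 CPM in 7 d FGF cells. For Pou3f1 the log2 change from NMPs was 3.17 ± 0.44 (adjusted p = 0.000286). Nell2, a secreted neuronal glycoprotein, Itgb8, an integrin that activates TGF-beta, and the leucine-rich repeat protein Lrrn1 were likewise lower than NMPs at 48 h and higher at 7 d, with 7 d log2 changes of 2.61 ± 0.40, 2.47 ± 0.34 and 3.18 ± 0.39. Styk1, a receptor-like kinase, was higher at 48 h and lower at 7 d, at 5.96, 8.36 and 7.31 CPM in NMPs, 19.4 and 23.5 CPM at 48 h and 0.637 and 0 CPM in 7 d FGF cells. Fgf15, an FGF ligand of the neural tube, was lower at 48 h and higher again at 7 d, at 24.5, 26.9 and 18.7 CPM in NMPs, 0.757 and 1.83 CPM at 48 h and 34.2 and 46.3 CPM in 7 d FGF cells. Spint1, an epithelial protease inhibitor, stood at 37.5, 42.6 and 41.9 CPM in NMPs, 5.05 and 3.43 CPM at 48 h and 31.8 and 17.5 CPM in 7 d FGF cells. Against NMPs neither passed (adjusted p = 0.066, as low as 0.0218 over the alternatives for Fgf15 and adjusted p = 0.0577, as low as 0.0136 over the alternatives for Spint1), although both 7 d libraries lay above the NMP libraries for Fgf15 and below them for Spint1.

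**Figure D4:**
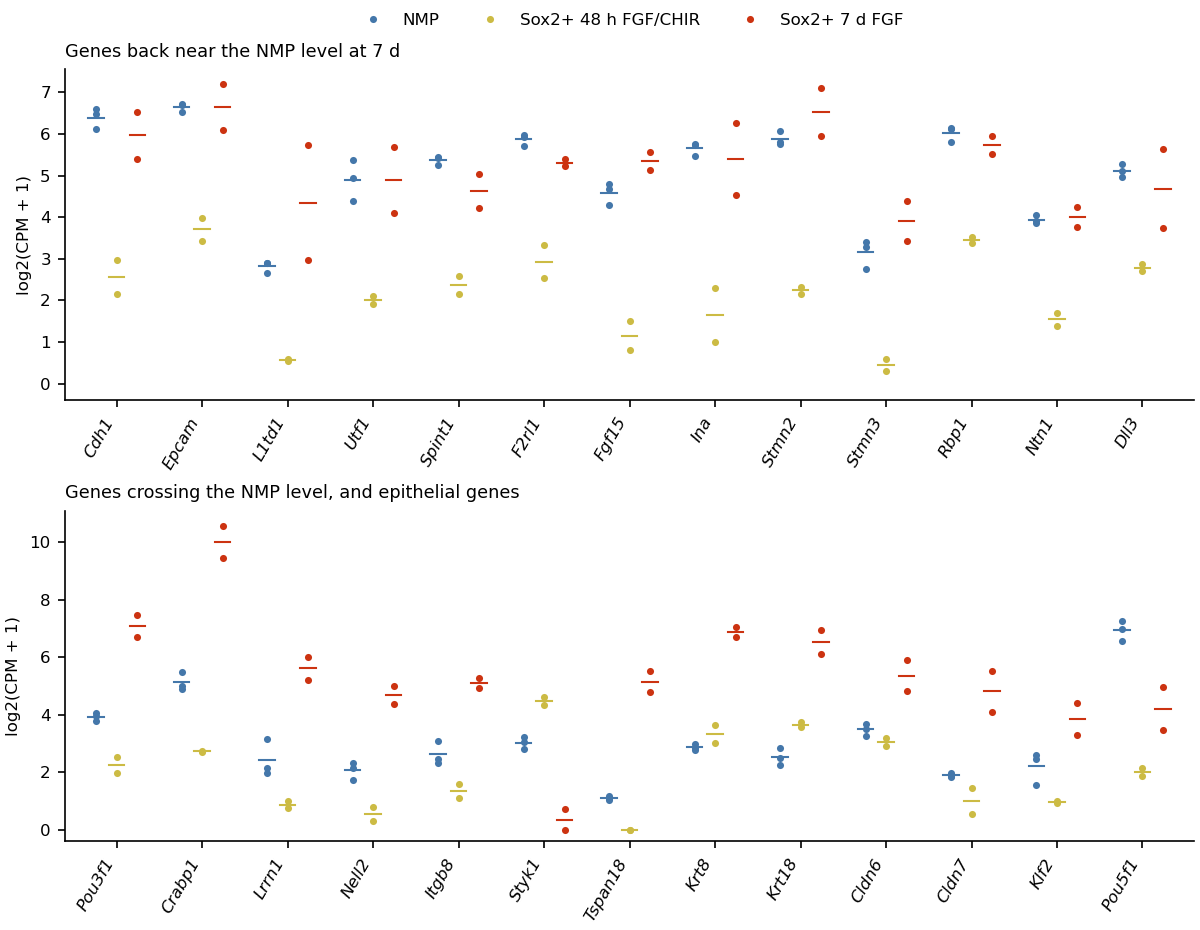
Levels as log2(CPM + 1) in each library of NMPs (blue), 48 h Sox2+ cells (yellow) and Sox2+ 7 d FGF cells (red), bars at the group means, for genes chosen because they came back towards the NMP level (top) and for genes that crossed it or mark epithelia and pluripotency (bottom). Stmn2 falls to 4.04 and 3.43 CPM at 48 h before returning, and Crabp1 ends far above its NMP level.

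The 2 libraries of Sox2+ 7 d FGF cells differed from each other along these same lists. Of the 17 pluripotency genes 16 were higher in replicate 1, as were 11 of 12 epithelial and 15 of 15 proliferation genes. Replicate 2 was higher in 14 of 15 neuronal, 18 of 20 axon guidance and 13 of 14 mesenchymal genes. Over all tested genes 6589 were higher in replicate 1 and 6300 in replicate 2. L1td1, an RNA-binding protein of pluripotent cells, stood at 51.9 and 6.89 CPM in replicates 1 and 2 and Otx2 at 7.01 and 0 CPM, while Tubb3 stood at 57.5 and 263 CPM and the collagen gene Col1a1 at 25.5 and 207 CPM. The neural progenitor genes were high in both, with list sums of 2122 and 3456 CPM. Replicates 1 and 2 had a Pearson correlation of 0.951 over genes on the log2 scale. How far these differences enter the changes above was not tested beyond leaving each library out.

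**Figure D5:**
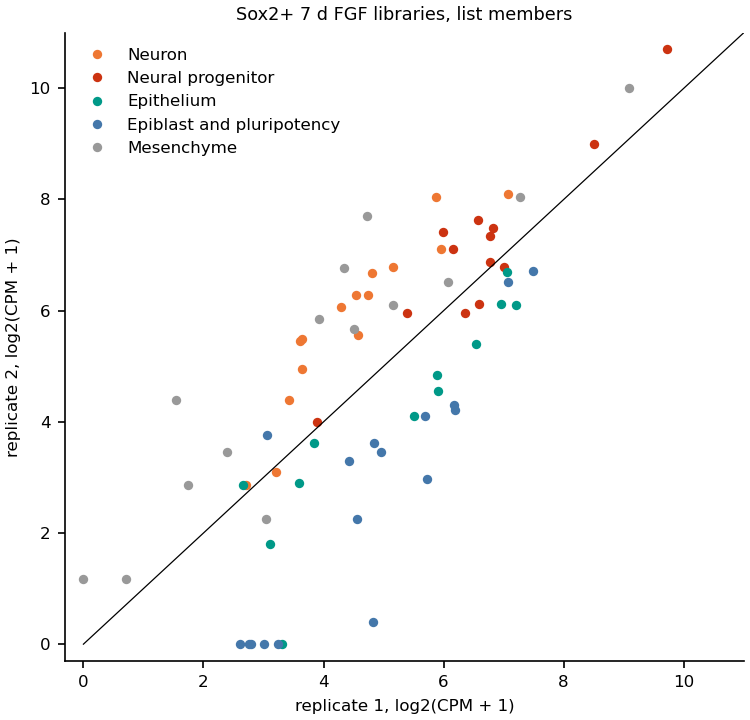
Level of each tested member of 5 gene lists in replicate 2 against replicate 1 of Sox2+ 7 d FGF cells, as log2(CPM + 1), with the line of equality. Neuronal and mesenchymal genes lie mostly above the line and epithelial and pluripotency genes below it.

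Axon guidance and cell adhesion genes rose more often than they fell against NMPs. Of the axon guidance genes 12 of 20 were higher and 1 was lower, with a median log2 change of 2.14. Dcc, the netrin receptor, stood at 2.33, 2.89 and 3.02 CPM in NMPs and 28.9 and 98.9 CPM in 7 d FGF cells (log2 change 3.87 ± 0.46, adjusted p = 7.27e-05), and its ligand gene Ntn1 fell at 48 h and came back, at 13.5, 15.6 and 13.9 CPM in NMPs, 2.27 and 1.6 CPM at 48 h and 17.8 and 12.5 CPM in 7 d FGF cells. Epha7 went from 24.8, 31.7 and 36.2 CPM in NMPs to 245 and 363 CPM in 7 d FGF cells (log2 change 3.25 ± 0.40, adjusted p = 0.000191) and the ligand Efnb3 had a log2 change of 3.12 ± 0.29. Sema6a was the member that fell, from 151, 215 and 191 CPM in NMPs to 48.5 and 44.4 CPM in 7 d FGF cells (log2 change -1.96 ± 0.22). Of the cell adhesion genes 7 of 12 were higher: Cdh2 (N-cadherin) stood at 47.6, 80.001 and 63.0 CPM in NMPs, 94.6 and 104.7 CPM at 48 h and 102 and 123 CPM in 7 d FGF cells (log2 change 0.84 ± 0.19, adjusted p = 0.00608, up to 1 over the alternatives). Ncam1 stood at 46.0, 64.4 and 50.7 CPM in NMPs, 231 and 209 CPM at 48 h and 134 and 170.3 CPM in 7 d FGF cells. For Ncam1 the log2 change was 1.49 ± 0.25 (adjusted p = 0.00111, up to 0.537 over the alternatives). Cdh1 and Cdh2 were both measured in these libraries, and bulk samples do not tell whether the same cells carried both.

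Of 15 proliferation genes 2 were higher, Rrm2 and Ccnb1, with a list median of 0.20. This count is under the share over all genes, of which 17.8% were higher. Neither Rrm2 nor Ccnb1 passed after median-of-ratios scaling. Without NMP replicate 1 or 7 d FGF replicate 1 the count was 0, and without NMP replicate 3 or 7 d FGF replicate 2 it was 1. Among cell cycle regulators 6 of 10 were higher and 1 was lower, a count that fell to 2 higher without 7 d FGF replicate 2, 2 without NMP replicate 1 and 3 without NMP replicate 2. Ccnd2, a D-type cyclin of neural progenitors, stood at 273, 357 and 358 CPM in NMPs, 541 and 503 CPM at 48 h and 887 and 941 CPM in 7 d FGF cells (log2 change 1.48 ± 0.15, adjusted p = 1.79e-05, up to 0.0761 over the alternatives), and Cdkn1a (p21) fell from 434, 376 and 414 CPM in NMPs to 118 and 189 CPM in 7 d FGF cells. For Cdkn1a the log2 change was -1.44 ± 0.32 (adjusted p = 0.00832, up to 1 over the alternatives). Of the Lin28 and let-7 timing genes, Lin28a, an inhibitor of let-7 maturation, did not pass at 48 h and was lower at 7 d, at 378, 363 and 392 CPM in NMPs, 342 and 345 CPM at 48 h and 145 and 120.4 CPM in 7 d FGF cells (log2 change -1.51 ± 0.15, adjusted p = 2.46e-05, up to 0.0761 over the alternatives), while Lin28b stood at 49.8, 68.2 and 57.2 CPM in NMPs and 52.2 and 46.3 CPM in 7 d FGF cells and did not pass. Hmga2, a let-7 target, peaked at 48 h, at 74.5, 83.5 and 69.9 CPM in NMPs, 359.8 and 368 CPM at 48 h and 226 and 268 CPM in 7 d FGF cells. For Hmga2 the log2 change from NMPs was 1.69 ± 0.13 (adjusted p = 3e-06). Imprinted growth genes were higher in 8 of 16 and lower in none. Mest stood at 168, 188 and 145 CPM in NMPs, 256 and 256 CPM at 48 h and 1449 and 2086 CPM in 7 d FGF cells (log2 change 3.38 ± 0.17, adjusted p = 9.74e-08). Igf2 stood at 54.4, 65.8 and 72.6 CPM in NMPs, 626 and 605 CPM at 48 h and 611 and 364 CPM in 7 d FGF cells. For Igf2 the log2 change was 2.87 ± 0.45 (adjusted p = 0.00169).

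Markers of other cell types did not move alike in 7 d FGF cells. The endoderm list and the endothelium and blood list had low sums. Some presomitic, mesenchyme, muscle and crest members were higher than in NMPs. Of presomitic mesoderm, Msgn1 and Mesp1 had no reads and Tbx6 fell from 2.46, 1.77 and 1.97 CPM in NMPs to 0.212 and 0 CPM (adjusted p = 0.0129, up to 1 over the alternatives), although the paraxial protocadherin Pcdh8 rose from 0.648, 0.643 and 0.581 CPM in NMPs to 37.6 and 55.1 CPM in 7 d FGF cells (log2 change 4.84 ± 0.34). Meox1 stood at 0.518, 0.965 and 0.116 CPM in NMPs and 7.64 and 6.26 CPM in 7 d FGF cells. For Meox1 the log2 change was 2.41 ± 0.40 (adjusted p = 0.001, up to 0.0569 over the alternatives). Pcdh8 met the expression filter only through the 2 libraries of 7 d FGF cells and could only be higher than in NMPs. Of 7 tested presomitic members 4 were higher and 2 were lower; the higher ones numbered 1 without 7 d FGF replicate 1 and 2 without replicate 2, and 1 was lower without NMP replicate 1 or 7 d FGF replicate 2. The list summed to 92.6, 105.01 and 110.1 CPM in NMPs and 172 and 146 CPM in 7 d FGF cells. Of endoderm, Afp and Hnf4a had no reads, and Sox17 stood at 0.425 and 3.76 CPM against 228 CPM in the double-negative FGF library. The endoderm list summed to 4.25 and 12.5 CPM in 7 d FGF cells and 7.91, 11.1 and 9.52 CPM in NMPs, with 0 of 5 tested members called. Of endothelium and blood, Tek and Hbb-bt had no reads, and of skeletal muscle, Myod1 and Myog had none. The endothelium and blood list summed to 33.0, 28.4 and 39.1 CPM in NMPs and 8.92 and 13.8 CPM in 7 d FGF cells, and its 1 tested member was lower. The muscle list went the other way from Myod1 and Myog: it summed to 21.8, 17.5 and 19.3 CPM in NMPs and 70.0 and 37.9 CPM in 7 d FGF cells. Of its 4 tested members 1 was higher and none was lower, with a median log2 change of 1.56. In both 7 d FGF libraries 3 of them lay above every NMP library. After quantile normalization 0 were called. Of neural crest, Sox10, its defining factor, stood at 0.212 and 0 CPM, but Tfap2b, an AP-2 factor of crest and dorsal neural tube, rose from at or under 3 reads per library in NMPs to 17.4 and 33.8 CPM (adjusted p = 9.87e-05). Of 6 tested crest members 2 were higher and 1 was lower. The crest list summed to 48.2, 70.5 and 57.8 CPM in NMPs and 60.1 and 180 CPM in 7 d FGF cells. With either 7 d FGF library left out, 0 members of that list were higher. The mesenchyme list had 5 of 14 higher and 1 lower and summed to 898 and 1912 CPM in replicates 1 and 2, 565, 877 and 766 CPM in NMPs and 11033, 9363 and 10613 CPM in Tbxt-derived cells; its count was 9 without 7 d FGF replicate 1, 2 without replicate 2, 2 without NMP replicate 1 and 3 without NMP replicate 3.

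The 7 d FGF cells were then set against the Tbxt-derived cells. Against them 3432 genes were higher in 7 d FGF cells (26.5%) and 2729 were lower (21.1%), together 6161 (47.6%); source, medium and gate differ together here. Of the neural progenitor genes 9 of 13 were higher in 7 d FGF cells than in Tbxt-derived cells and 1 was lower, while the list summed to 2825, 4102 and 4371 CPM in Tbxt-derived cells against 2122 and 3456 CPM in 7 d FGF cells. Higher, with none lower, were 7 of 11 dorsoventral, 12 of 15 neuronal and 11 of 12 epithelial genes. Pou3f3, Pax7, Msx3, Olig3 and Dcx met the expression filter only through the 2 libraries of 7 d FGF cells. Against Tbxt-derived cells they too could only be higher, so the filter set part of the progenitor, dorsoventral and neuronal counts. The sums of the dorsoventral list overlapped, at 766, 300 and 314 CPM in Tbxt-derived cells and 348 and 700 CPM in 7 d FGF cells. The neuronal and epithelial lists summed to less in every Tbxt-derived library than in either 7 d FGF library. Axon guidance genes were 4 higher and 9 lower of 20, with sums of 2885, 3069 and 3297 CPM in Tbxt-derived cells and 953 and 1546 CPM in 7 d FGF cells, and cell adhesion genes 3 higher and 5 lower of 12. Sox1 and Hes5 had no reads in the Tbxt-derived libraries, and Fabp7 stood at 1.16, 0 and 0 CPM there. Crabp1 was high at both end points, at 638, 1263 and 1587 CPM in Tbxt-derived cells, and its difference did not pass (adjusted p = 0.87). Nor did Fgfr2 and Cyp26b1 pass, with log2 differences of 7 d FGF from Tbxt-derived cells of -0.44 ± 0.25 (95% interval -0.98 to 0.11) and 0.22 ± 0.39 (-0.62 to 1.05). Cdx1 was at or near 0 in both, at 0.582, 0 and 0.79 CPM in Tbxt-derived cells. Cdx2 and Nkx1-2, in contrast, were higher in 7 d FGF cells than in Tbxt-derived cells, where Cdx2 stood at 1.46, 0.396 and 0.527 CPM (adjusted p = 1.81e-09) and Nkx1-2 at 1.75, 0.396 and 0.263 CPM (adjusted p = 7.95e-08). Of the posterior Hox genes of groups 10 to 13, 6 of 11 were lower in 7 d FGF cells than in Tbxt-derived cells and none was higher. In the same comparison 12 of 16 imprinted genes were lower and 3 were higher. BMP and TGF-beta genes were 2 higher and 7 lower of 14, and Hedgehog genes 0 higher and 5 lower of 10.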

How the data were processed

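RNA was measured in bulk, sorted mouse cells. Per the labels' protocols, poly-A RNA was reverse transcribed with an oligo-dT primer carrying a barcode and molecular identifier and tagmented before sequencing, which places reads near transcript 3' ends, so levels were not compared between genes. STAR 2.7, SAMtools 1.21 and the GRCm39 build are named in the submitters' processing notes; the counting of reads or identifiers is not described there. The authors deposited 1 table of CPM, reads scaled to 1000000 per library, 78409 rows by 15 libraries. Rows without a gene name (21909, 1.1 to 1.81% of a library) and 92 spike-in rows were left out of the test, and 627 rows sharing 311 symbols were summed by symbol.

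The steps between low CPM values gave each library's relative depth, but only 71.1 to 78.7% of values above 0 were whole reads within 0.01 of a read, so no count model was used for the main results; voom on inferred reads is among the alternatives. The test kept genes that reached 5 CPM in 2 or more libraries, and limma 3.58.1 (R 4.3.3, trend and robust empirical Bayes, all 15 libraries in 8 groups, 7 residual degrees of freedom) was fitted to log2(CPM + 1), with two-sided tests, Benjamini-Hochberg adjustment over all genes tested and a threshold of 0.05. Such fold changes understate those of low genes. Some genes, among them Pou3f3, Glra1, Insm1, Dcx and Pcdh8, met the filter only through the 2 libraries of 7 d FGF cells. Against NMPs, 48 h Sox2+ cells or Tbxt-derived cells, a rise was the only direction open to them. A gene with at most 3 reads in every library of a group is given as levels, not as a fold, and intervals for 0 reads cover counting error only.

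The cells compared and the 33 gene lists were chosen with earlier results of these data known, so list counts are descriptions. Genes were named as the sorted reporters, the 12 largest changes each way with groups not overlapping and at least 20 CPM, up to 5 called members per list, and list members that returned or crossed between 48 h and 7 d; other members named (ventral, glial and non-neural markers, the genes used to compare replicates, and genes that did not pass) were chosen after their values were seen. The fitting script was tested on simulated data. Pseudocounts, filters, scalings, weights, a 2-fold minimum, a replicate block and each replicate left out were tried as alternatives. Adjusted p ranges are over up to 16 of them.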

Additional observations from a re-analysis of the deposited data

How the results depend on the processing

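Between 7 d FGF cells and NMPs 148 named genes passed. Of these, 97 passed under every alternative that tested them and 51 were lost under at least 1. The 51 include genes lost only under the 2-fold minimum, such as Ednrb. None of the 148 changed direction. The 3371 genes called in that comparison became 466 under a 2-fold minimum, and 1745 (without 7 d FGF replicate 2) to 3025 (without NMP replicate 2) with each replicate left out; the lone remaining 7 d library was then assumed to vary like the other groups. The 48 h against NMP count of 1025 became 668 with a 20 CPM filter, 3510 with array weights, 106 under a 2-fold minimum and 315 (without 48 h replicate 2) to 744 (without NMP replicate 1) with each replicate left out. The 7 d against 48 h count of 3203 became 442 under a 2-fold minimum and 1453 (without 48 h replicate 2) to 2766 (without 7 d FGF replicate 1). The count against Tbxt-derived cells, 6161, became 1282 under a 2-fold minimum and 4838 to 6490 with each replicate left out. The 20 CPM filter tested fewer genes; the other causes were not tested. With voom on inferred reads, chosen after seeing the data, 2752 genes passed between 7 d FGF cells and NMPs.

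Replicates share numbers in the labels, which do not say that a number marks a shared culture or day. NMPs and 7 d FGF cells of the same number had correlated deviations of 0.0199 and 0.016, 48 h and 7 d FGF cells of 0.201, NMPs and 48 h Sox2+ cells of -0.102 and -0.0812, and NMPs and the 48 h Tbxt+ cells, not compared here, of 0.48 and 0.457. With the number as a replicate block the counts were 2574, 680, 2751 and 5386 in the order above. The edgeR test on recovered reads was not run, because whole reads were not recovered. Depth limits 7 d FGF replicate 2 most, where genes near 3.76 CPM rest on 3 reads.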

Other observations

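Of 11 tested glycolysis and hypoxia genes 2 fell in 7 d FGF cells and none rose, against 8.21% lower over all genes, with a median log2 change of -0.55. Slc2a1, a glucose transporter, stood at 804, 972 and 801 CPM in NMPs, 377 and 471 CPM at 48 h and 497 and 349 CPM in 7 d FGF cells (log2 change -1.04 ± 0.21, adjusted p = 0.00318, up to 1 over the alternatives). Pdk1, a kinase that holds back pyruvate oxidation, stood at 91.6, 97.8 and 141 CPM in NMPs, 39.4 and 34.5 CPM at 48 h and 26.1 and 11.3 CPM in 7 d FGF cells (log2 change -2.58 ± 0.40, adjusted p = 0.000966). All 11 tested members were higher in replicate 1 than in replicate 2 of the 7 d FGF cells. Without 7 d FGF replicate 2 the count of lower members was 1.

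Over all genes 17.8% were higher in 7 d FGF cells than in NMPs and 8.21% were lower. The counts of the DNA methylation and p53 target lists lie near or under these shares. Of the DNA methylation genes, 1 of 10 was higher. Tet2, which oxidises methylcytosine, stood at 2.07, 5.15 and 5.11 CPM in NMPs and 16.8 and 22.5 CPM in 7 d FGF cells (log2 change 2.07 ± 0.29, adjusted p = 0.000262). Dnmt3b, a de novo methyltransferase, was lower at 48 h and stood at 141, 201 and 169.9 CPM in NMPs, 70.9 and 74.7 CPM at 48 h and 285 and 133 CPM in 7 d FGF cells, where it did not pass against NMPs (adjusted p = 0.58, as low as 0.032 over the alternatives). Without 7 d FGF replicate 2, 3 members were higher. Of 11 p53 target genes 1 was lower and none was higher: Phlda3 stood at 171, 97.9 and 117 CPM in NMPs and 38.0 and 36.3 CPM in 7 d FGF cells (log2 change -1.72 ± 0.30, adjusted p = 0.00142, up to 0.276 over the alternatives).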
